A study of Homo sapiens with 2 samples.

Results

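Collagens and laminins were followed in AGS cells, a gastric adenocarcinoma line, after overexpression of WTX. The members were the genes whose symbol names a collagen chain or a laminin alpha, beta or gamma chain, taken from probe sets that the platform annotation gives to that gene alone. They came to 53 genes with 135 probe sets, of 19775 genes and 54613 probe sets in all. AGS.W cells carried a lentiviral vector with the complete coding region of WTX (AMER1), a tumour suppressor gene of the X chromosome, and were selected with puromycin as a stable line. AGS.veh cells were the negative control line. Nothing in the sources states that either line was grown from a single clone. The RNA of each line was read on 1 Affymetrix U133 Plus 2.0 array, so no replicate error, p-value or FDR can be given. All differences are log2 signals of AGS.W minus AGS.veh as deposited, and a difference of 1 is 2-fold.

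Collagens are trimers of alpha chains wound into a triple helix. The fibrillar types form the banded fibres of stroma, whereas type IV builds the sheet of the basement membrane, the thin layer on which epithelium rests. Laminins are cross-shaped trimers of an alpha, a beta and a gamma chain, and they form the second network of that layer and bind integrins on the cell surface. Carcinoma cells can make basement membrane chains of their own, while fibrillar collagen in tumours comes mostly from fibroblasts.

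The array medians, 4.02 for AGS.W and 4.03 for AGS.veh on the log2 scale, served as the signal filter. A gene passed if its brightest probe set, which stands for the gene, reached the median on at least 1 array. AMER1 itself was read by 1 probe set, which read 3.70 in AGS.W against 3.86 in AGS.veh. These values lay under the filter, and it was not settled whether this probe set lies in the coding region of the vector, so it does not check the labels. The extraction note of the labels speaks of brain tissue, whereas the cell line field and the methods name AGS. Of the epithelial markers, 4 of 6 passed the filter, with differences of -0.31 for KRT18, -0.38 for KRT8, -0.88 for KRT7 and 0.92 for EPCAM, while CDH1 (2.72 in AGS.W, 2.50 in AGS.veh) and KRT19 (3.11 in AGS.W, 2.76 in AGS.veh) did not pass. The linear signals of the 6 summed to 3235 in AGS.W against 4187 in AGS.veh. Of the astrocyte and oligodendrocyte markers 3 of 6 measured passed the filter, MBP (6.10 in AGS.W, 6.19 in AGS.veh), SLC1A2 (4.79 in AGS.W, 5.02 in AGS.veh) and MOG (4.70 in AGS.W, 4.35 in AGS.veh). GFAP, S100B and AQP4 were under it, GFAP at 3.44 in AGS.W against 2.97 in AGS.veh. Of the endothelial markers 2 of 5 passed, and of the leukocyte markers 1 of 3 measured. For comparison, 12811 of all 19775 genes passed the filter. Of 10 markers of fibroblasts and other mesenchymal cells, 5 passed the filter, 3 higher and 2 lower in AGS.W around a median of 0.09. None of these 5 lay 2-fold apart. The linear signals of all 10 summed to 3126 in AGS.W against 2957 in AGS.veh, most of it from VIM. Among the defining fibroblast genes, LUM, FAP and POSTN were under the filter on both arrays, and DCN lay near it at 4.14 in AGS.W against 4.28 in AGS.veh. In the same list the differences were -0.98 for PDGFRB, 0.54 for PDGFRA, 0.27 for THY1 and 0.09 for VIM. PDGFRA was under the filter in AGS.veh at 3.59, and with this value raised to the median its difference was 0.11. For the genes under the filter the differences were -0.83 for ACTA2, -0.57 for SPARC, -0.23 for POSTN, -0.17 for FAP and 0.24 for LUM. Whether such markers have a part in the differences of the chains was not tested. In RNA of whole cultures, fewer cells that make a chain and less of its RNA per cell cannot be told apart.

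Of the 53 chain genes, 30 passed the filter, and their larger differences were mostly on the lower side in AGS.W. None of the 30 passed 2-fold on the higher side and 2 did on the lower side, COL4A6 and COL5A1, where 1.83% of all 12811 genes above the filter were 2-fold higher and 1.94% were 2-fold lower. At 1.5-fold, 1 chain was higher, COL1A1, and 6 were lower, or 20.0% of the 30 against a background of 7.37% lower and 6.64% higher genes. The 6 were COL4A6, COL5A1, COL16A1, COL4A5, COL4A1 and COL12A1. Of these, COL4A6 passed the filter on AGS.veh alone, with its AGS.W signal under the median. With the median required on both arrays 28 chains passed and 1, COL5A1, was at least 2-fold lower, beside 197 of 12151 genes. In direction alone the chains were less one-sided, with 11 higher and 17 lower, and 45.7% and 50.5% of all genes above the filter had these directions. The median difference of the 30 was -0.09, beside -0.01 for all genes above the filter. By probe set, 3 of 52 above the filter were at least 2-fold lower and none was 2-fold higher, where the background was 1.89% lower and 1.9% higher. At 1.5-fold, 9 of the 52 probe sets were lower and 2 higher, beside 7.19% lower and 7.03% higher in the background. At 3-fold 1 gene and 1 probe set were lower, those of COL4A6, beside 0.445% of genes and 0.386% of probe sets. Each chain gene had 1 value per array, so how far these shares would vary between cultures is unknown.

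**Figure D1:**
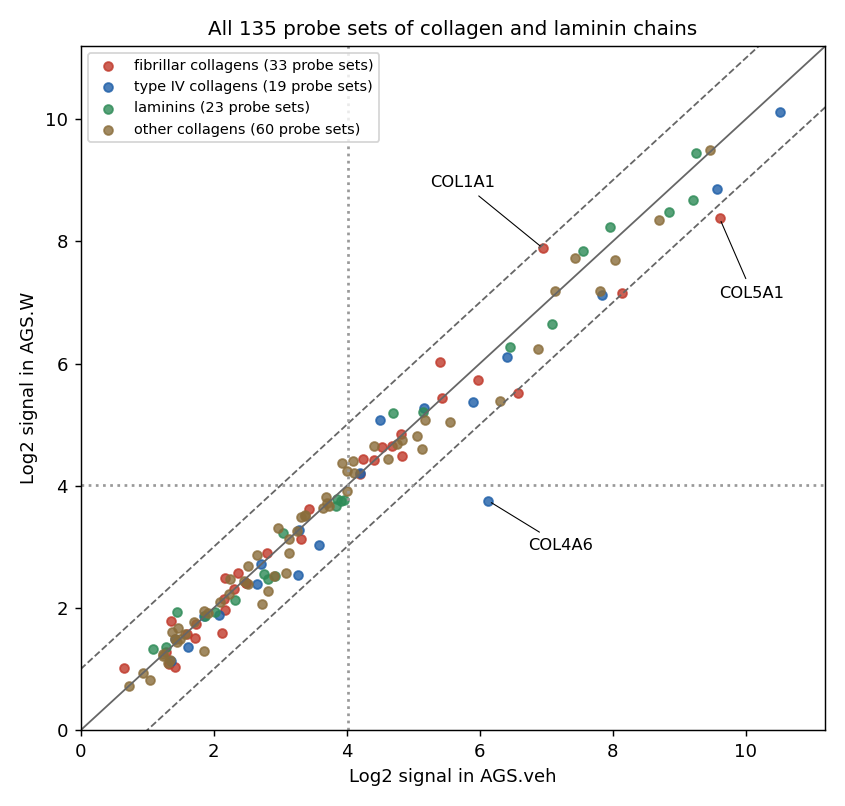
Log2 signal in AGS.W (vertical axis) against AGS.veh (horizontal axis) for all 135 probe sets of collagen and laminin chains, 1 array per line, coloured by chain group. The solid diagonal marks equal signal, the dashed ones 2-fold, and the dotted lines the median of each array; COL4A6, at 3.76 in AGS.W against 6.13 in AGS.veh, lies farthest from the diagonal.

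Where several probe sets of a chain passed the filter, they mostly gave the same direction. This could be looked at for 16 genes, of which 8 had every such probe set lower in AGS.W, 3 had every one higher and 5 had probe sets on either side or at 0. The 8 were COL4A1, COL4A2, COL5A1, COL7A1, COL12A1, COL13A1, COL18A1 and LAMC1, and the 3 were COL4A4, COL6A1 and LAMB1. COL6A1 included a probe set that passed on AGS.W alone, at 4.37 against 3.93 in AGS.veh, and its probe sets under the filter were all lower. The share of all genes with such agreement was not computed, so these counts have no background and are not read as a trait of the chains. Identical values on both arrays occurred in 25 of the 135 probe sets, 21 of them under the filter. They occurred in 6900 of all 54613 probe sets.

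**Figure D2:**
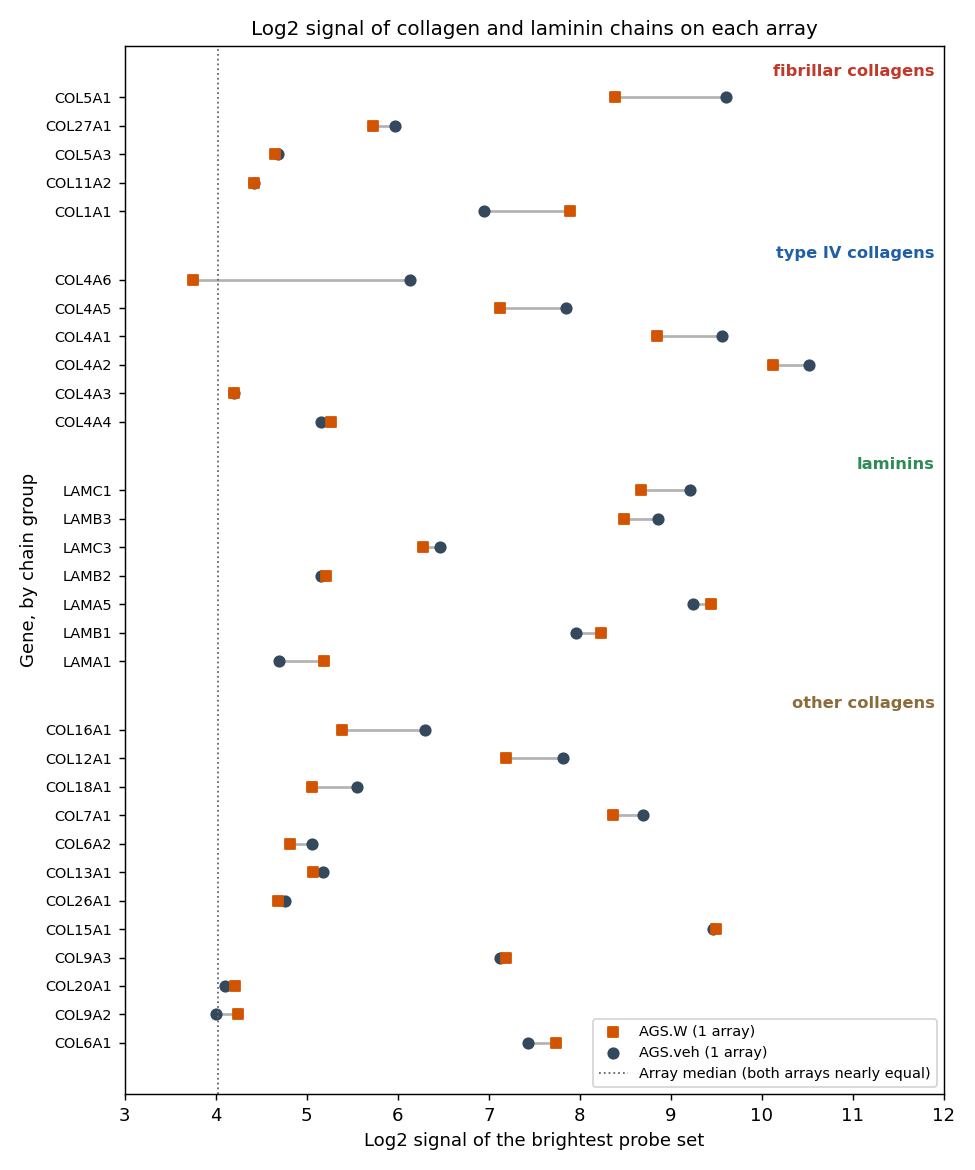
Log2 signal (horizontal axis) of the brightest probe set of each of the 30 chain genes above the filter in AGS.W (squares) and AGS.veh (circles), 1 array each, by chain group and ordered by difference. COL4A6 has the longest line, COL5A1 the next, and COL1A1 is the chain that stands highest in AGS.W relative to AGS.veh.

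Type IV collagen was the group with the lowest median, -0.56 over 6 genes, all of which passed the filter. COL4A6 passed it only on AGS.veh, where its signal was the higher. With the array median required on both arrays, 5 genes remained and their median was -0.40. Its 6 chains are encoded as head-to-head pairs that are read in opposite directions from a short shared stretch. These stretches are shown because partners can be set side by side on the arrays. In RefSeq GRCh38.p14, the start sites of COL4A1 and COL4A2 on chromosome 13 had 126 bases between them, with 418 bases for COL4A4 and COL4A3 on chromosome 2, and 379 bases for COL4A6 and COL4A5 on chromosome X. RefSeq gives COL4A6 a further start site 1036 bases downstream of the first. Printed below are the whole stretch between COL4A1 and COL4A2 (chr13:110307158-110307283, strand of COL4A2), the 250 bases before the first start of COL4A6 (chrX:108439459-108439708, minus strand) and the 250 bases before that of COL4A5 (chrX:108439588-108439837, plus strand). Capitals mark exact matches, on either strand, to the CCAAT box (CCAAT) or the GC box (GGGCGG).
COL4A1 to COL4A2: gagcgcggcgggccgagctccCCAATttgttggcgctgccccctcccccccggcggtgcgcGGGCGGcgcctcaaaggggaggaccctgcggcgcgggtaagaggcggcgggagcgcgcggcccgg
COL4A6: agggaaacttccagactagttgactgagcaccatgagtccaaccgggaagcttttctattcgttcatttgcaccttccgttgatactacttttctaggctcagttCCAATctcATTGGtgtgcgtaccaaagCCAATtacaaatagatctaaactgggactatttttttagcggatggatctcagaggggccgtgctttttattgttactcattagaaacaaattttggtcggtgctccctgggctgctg
COL4A5: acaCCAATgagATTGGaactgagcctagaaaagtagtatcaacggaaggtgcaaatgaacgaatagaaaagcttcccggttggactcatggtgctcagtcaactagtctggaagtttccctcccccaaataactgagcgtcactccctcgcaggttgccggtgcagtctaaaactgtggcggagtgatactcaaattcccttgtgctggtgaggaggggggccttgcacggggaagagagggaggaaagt

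The windows of COL4A6 and COL4A5 share 121 bases, seen from opposite strands, and the facing CCAAT matches in these bases appear in both. The stretch between COL4A1 and COL4A2 held 1 CCAAT and 1 GC box match and was 80.2% G and C, against 44.0% before COL4A6 and 51.2% before COL4A5. Over 35116 promoter windows of 250 bases, 32.0% held a CCAAT box and 42.6% a GC box, and over windows of 126 bases 21.1% and 34.6%. No match overlapped another. TATAAA, the TATA box, was found in none of the printed windows and in 10.7% of all windows of 250 bases. Such matches are letters in a window and do not show that a factor binds there. Of the 53 member genes, 39 had a window in the RefSeq table.

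COL4A1 and COL4A2 encode the chains of the common type IV trimer found in nearly every basement membrane. COL4A1 had 8.85 in AGS.W against 9.57 in AGS.veh, a difference of -0.71, and its dimmer probe set had 5.37 and 5.90. COL4A2 had 10.12 in AGS.W against 10.52 in AGS.veh, a difference of -0.40, and 6.11 and 6.41 on its dimmer probe set. All 4 probe sets of the pair were thus lower in AGS.W, by between 0.30 and 0.71 on the log2 scale, which is under 2-fold.

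COL4A5 and COL4A6 encode the chains of a trimer of specialised basement membranes such as that of skin and smooth muscle. COL4A5 had 7.12 in AGS.W against 7.85 in AGS.veh, a difference of -0.73. Its other probe set, under the filter, had 3.04 in AGS.W against 3.58 in AGS.veh. COL4A6 had 3.76 in AGS.W against 6.13 in AGS.veh, a difference of -2.37 or 5.18-fold lower. The AGS.W value lay under the array median, at a level that may be background. If it is raised to the median, COL4A6 was at least 4.31-fold lower in AGS.W. The remaining probe sets of COL4A6 were under the filter on both arrays. The brighter of these had 2.53 in AGS.W against 3.27 in AGS.veh, the other 2.40 against 2.65. All 3 were lower in AGS.W, while the size of the difference rests on the brightest, and the mean of the 3 was -1.12. Within this pair both partners were lower in AGS.W, and their differences were 1.65 apart, whereas those of COL4A1 and COL4A2 were 0.31 apart. As means over probe sets these gaps were 0.48 and 0.27, so the wider gap between COL4A5 and COL4A6 rests on the brightest probe set of COL4A6.

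COL4A3 and COL4A4, chains of the kidney glomerular basement membrane, did not share the lower values. COL4A3 was listed at 4.20 on both arrays, and its 6 other probe sets were under the filter. COL4A4 had 5.27 in AGS.W against 5.16 in AGS.veh, while a dimmer probe set above the filter had 5.08 and 4.51, a difference of 0.58. Of the 3 pairs, those of COL4A1 and of COL4A5 therefore held lower signals in AGS.W on every probe set, and the pair of COL4A3 did not.

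**Figure D3:**
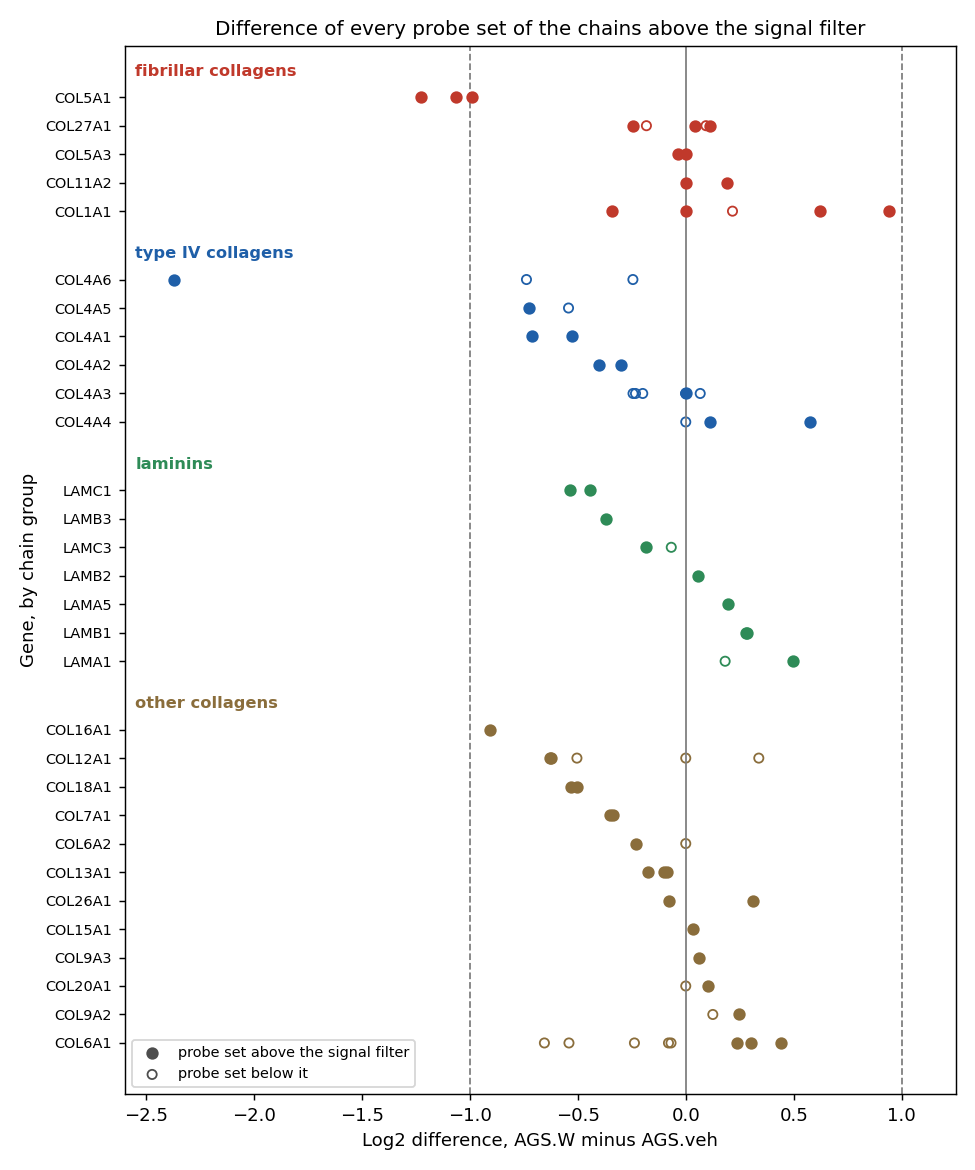
Log2 difference AGS.W minus AGS.veh (horizontal axis) of every probe set of the 30 chain genes above the filter, filled where that probe set passed the filter and open where it did not, with dashed lines at 2-fold. All probe sets of COL4A1, COL4A2, COL4A5, COL4A6 and COL5A1 lie left of 0, whereas those of COL1A1 and COL6A1 lie on either side.

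Laminin chains had smaller differences and no common direction. Of 10 measured laminin genes 7 passed the filter, 4 higher and 3 lower in AGS.W, with a median of 0.06 and none at least 1.5-fold apart. LAMA5, LAMB1 and LAMC1 encode the trimer that is typical of adult epithelial basement membranes. LAMA5 had 9.44 in AGS.W against 9.25 in AGS.veh on its 1 probe set. LAMB1 had 8.23 in AGS.W against 7.95 in AGS.veh, as well as 7.84 and 7.56 on its other probe set, a difference of 0.28 on each. LAMC1, the gamma chain that most laminins contain, had 8.67 in AGS.W against 9.21 in AGS.veh, a difference of -0.54, and 6.64 and 7.08 on its other probe set. The chains of this trimer were thus not all on the same side, and LAMC1 was the lowest of the laminin genes above the filter.

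LAMB2, a beta chain that can replace LAMB1, had 5.21 in AGS.W against 5.15 in AGS.veh. LAMA1, the alpha chain of the early embryo, had 5.19 in AGS.W against 4.70 in AGS.veh, a difference of 0.50 that was the highest of the group. LAMB3 belongs to the laminin of hemidesmosomes, the junctions that fix epithelium to its basement membrane, and had 8.49 in AGS.W against 8.85 in AGS.veh. LAMC3 had 6.28 in AGS.W against 6.46 in AGS.veh. LAMA2 and LAMA4, alpha chains of muscle and of blood vessels, and LAMB4 were under the filter, with differences between -0.20 and -0.16. With these 3 genes included the median of the laminins was -0.17, so its sign depends on the filter. A further LAMA5 probe set, which the annotation gives to an antisense gene as well, was left out.

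Fibrillar collagens were led on the lower side by COL5A1 and on the higher side by COL1A1, and 5 of 11 genes passed the filter. COL5A1 encodes the type V chain that sits in the core of type I fibrils and limits their width. Its 3 probe sets had 8.38, 7.15 and 5.52 in AGS.W against 9.61, 8.14 and 6.58 in AGS.veh. The differences were -1.23, -0.99 and -1.06, so every probe set was lower in AGS.W and 2 of the 3 passed 2-fold. On the brightest, COL5A1 was 2.34-fold lower, and the mean of the 3 was -1.09. COL5A2, whose chain joins that of COL5A1 in the usual type V trimer, was listed at 2.31 on both arrays, under the filter. COL5A3 had 4.65 in AGS.W against 4.69 in AGS.veh. Among type V chains the difference was thus seen in COL5A1, the one that lay well above the median.

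COL1A1, the main chain of type I collagen, gave mixed readings. Its brightest probe set had 7.89 in AGS.W against 6.95 in AGS.veh, a difference of 0.94, and the next had 6.02 and 5.40. A dimmer one was listed at 5.43 on both arrays, and another had 4.49 in AGS.W against 4.83 in AGS.veh. All 5 probe sets of COL1A1 are of the _s_at and _x_at types, which can match several transcripts, and their mean difference was 0.29. COL1A2, the obligatory partner in the common type I trimer, was under the filter at 3.61 in AGS.W against 3.44 in AGS.veh. COL27A1 had 5.72 in AGS.W against 5.97 in AGS.veh, while a pair of its dimmer probe sets above the filter had differences of 0.11 and 0.04. COL11A2 was listed at 4.42 on both arrays, and its other probe set had a difference of 0.19. COL3A1, COL2A1, COL11A1 and COL24A1 were under the filter on all of their probe sets. The median of the 5 fibrillar genes above the filter was -0.03.

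Of the other collagens 12 of 26 genes passed the filter, 5 higher and 7 lower in AGS.W, and none was 2-fold apart. COL12A1 and COL16A1 are fibril-associated chains, which sit on the surface of fibrils and carry interrupted helices. COL16A1 had 5.39 in AGS.W against 6.30 in AGS.veh on its 1 probe set, a difference of -0.91 or 1.87-fold lower. COL12A1 had 7.19 in AGS.W against 7.82 in AGS.veh, as well as 6.25 and 6.88 on its next probe set, differences of -0.62 and -0.63. Its 3 remaining probe sets were under the filter and ranged from -0.50 to 0.34. COL9A2, COL9A3 and COL20A1, of the same class, had differences of 0.24, 0.06 and 0.10. The fibril-associated chains with the larger differences were thus lower in AGS.W.

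COL18A1 and COL15A1 are related chains that carry sugar side chains and lie next to basement membranes, and that of COL18A1 releases endostatin. COL18A1 had 5.05 in AGS.W against 5.56 in AGS.veh, with 4.60 and 5.13 on its other probe set. COL15A1 had 9.50 in AGS.W against 9.47 in AGS.veh, so the relatives differed. COL7A1 forms the anchoring fibrils that tie the basement membrane to the tissue beneath. It had 8.36 in AGS.W against 8.70 in AGS.veh, as well as 7.69 and 8.04 on its other probe set.

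Type VI collagen forms beaded microfibrils from a COL6A1, a COL6A2 and a further chain. COL6A1 had 7.74 in AGS.W against 7.43 in AGS.veh. Its 3 probe sets above the filter were all higher, by 0.24 to 0.44. The 5 under the filter were all lower, by 0.07 to 0.65, so the direction of COL6A1 depended on the probe set and its mean was -0.07. COL6A2 had 4.82 in AGS.W against 5.05 in AGS.veh, while COL6A3, COL6A5 and COL6A6 were under the filter. COL13A1, a membrane-spanning collagen, had 5.07 in AGS.W against 5.17 in AGS.veh, with all 3 of its probe sets lower by 0.08 to 0.17. COL26A1 had 4.68 in AGS.W against 4.76 in AGS.veh on its brightest probe set and a difference of 0.31 on the other.

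The 23 chain genes under the filter had signals of at most 3.96 on either array and differences between -0.38 and 0.22. They comprised 6 fibrillar genes, 3 laminins and 14 other collagens, among them the network-forming COL8A1, COL8A2 and COL10A1, and the membrane-spanning COL23A1 and COL25A1. At such signals the arrays could not show whether the chain was expressed. COL17A1, the hemidesmosome collagen, was not analysed here.

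Genes that make, secrete, anchor or receive these chains were taken from general knowledge as 6 lists of 74 genes, of which 71 were measured and 60 passed the filter. In AGS.W 36 of the 60 were higher and 23 lower, with a median of 0.12, and 2 passed 2-fold on the higher side and 3 on the lower side. Of all genes above the filter 45.7% were higher and 50.5% lower, and 1.83% and 1.94% passed 2-fold. The enzymes that hydroxylate proline and lysine, which stabilises the helix and prepares it for cross-links, included both 2-fold higher genes. P4HA1, a catalytic subunit of prolyl 4-hydroxylase, had 9.34 in AGS.W against 8.23 in AGS.veh, a difference of 1.11. P4HA2, its alternative, had 8.64 in AGS.W against 7.62 in AGS.veh, a difference of 1.02. Averaged over all probe sets of each gene these were 0.56 and 0.61, so neither stayed past 2-fold. The lysyl hydroxylase PLOD2 had 8.46 in AGS.W against 7.54 in AGS.veh, while the mean difference of its probe sets was 0.97. The list also held genes that are not themselves such hydroxylases, among them CRTAP, PPIB and COLGALT1. On the lower side of its 14 genes were P3H2 at -0.39, P3H4 at -0.26 and PLOD3 at -0.12. The mean over the probe sets of P3H2 was -0.13. The list as a whole had 10 higher and 4 lower genes and a median of 0.16.

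Chaperones and export factors had 7 of 8 genes higher, where 45.7% of all genes above the filter were higher, with a median of 0.31 and none 2-fold apart. The coat components SEC24D and SEC23A, which carry cargo out of the endoplasmic reticulum, had 0.57 and 0.49. TANGO2 had 0.39, although its place in a list of collagen export factors was not checked. SERPINH1, the collagen-specific chaperone, had -0.25. Of 11 genes for propeptide processing and cross-linking 6 were higher and 5 lower. The cross-linking oxidases LOX and LOXL2 had 0.92 and 0.75, although the mean over the probe sets of LOXL2 was 0.06. LOXL4 had 0.31 but passed the filter on AGS.W alone, at 4.06 against 3.75 in AGS.veh. With the AGS.veh value raised to the median, its difference was 0.04. BMP1, which removes the C-terminal propeptide, had -0.54, although the mean over its 7 probe sets was -0.21. LOXL1 had -0.37 and PCOLCE2 had -0.20.

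Basement membrane partners above the filter numbered 9. NTN4, a netrin that disturbs laminin networks, had 3.78 in AGS.W against 4.92 in AGS.veh, a difference of -1.14 whose AGS.W value lay under the median. Raised to the median, the difference was -0.89, so NTN4 then no longer passed 2-fold, an alternative chosen after the values were seen. FBLN2 had -0.48 and NID1, a linker of laminin and type IV collagen, had -0.21, which turned to 0.06 when its probe sets were averaged. Its relative NID2 had 8.16 in AGS.W against 7.49 in AGS.veh, SMOC1 had 9.87 and 9.19, and FBLN1 had a difference of 0.23. None of the 10 receptors above the filter was 2-fold apart. ITGA2, a subunit of a collagen-binding integrin, had the highest difference with 0.55, before ITGA1 with 0.27 and BCAM with 0.24, and ITGA6, of the laminin-binding integrins, the lowest with -0.19, before ITGA7 with -0.16 and ITGB1 with -0.03. The means over the probe sets of ITGA7 and ITGB1 were 0.24 and 0.05, on the other side of 0.

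Among 8 factors of the TGF-beta axis and SP1, which act upstream of collagen genes, 2 were higher and 6 lower. The shares over all genes above the filter were 45.7% higher and 50.5% lower, with 1.94% at least 2-fold lower. Whether these factors have a part in the differences of the chains was not tested. TGFB2, a ligand, had 4.12 in AGS.W against 6.22 in AGS.veh, a difference of -2.10, and its mean over 5 probe sets was -1.50. The receptor TGFBR2 had 6.67 in AGS.W against 7.78 in AGS.veh, a difference of -1.11, with a mean of -0.67. CCN2, a target of this axis, had -0.39. SP1, which binds GC boxes, had 0.68, and TGFBR1 had 0.13. The median of this list was -0.28, the lowest of the 6 lists, beside -0.01 for all genes above the filter.

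**Figure D4:**
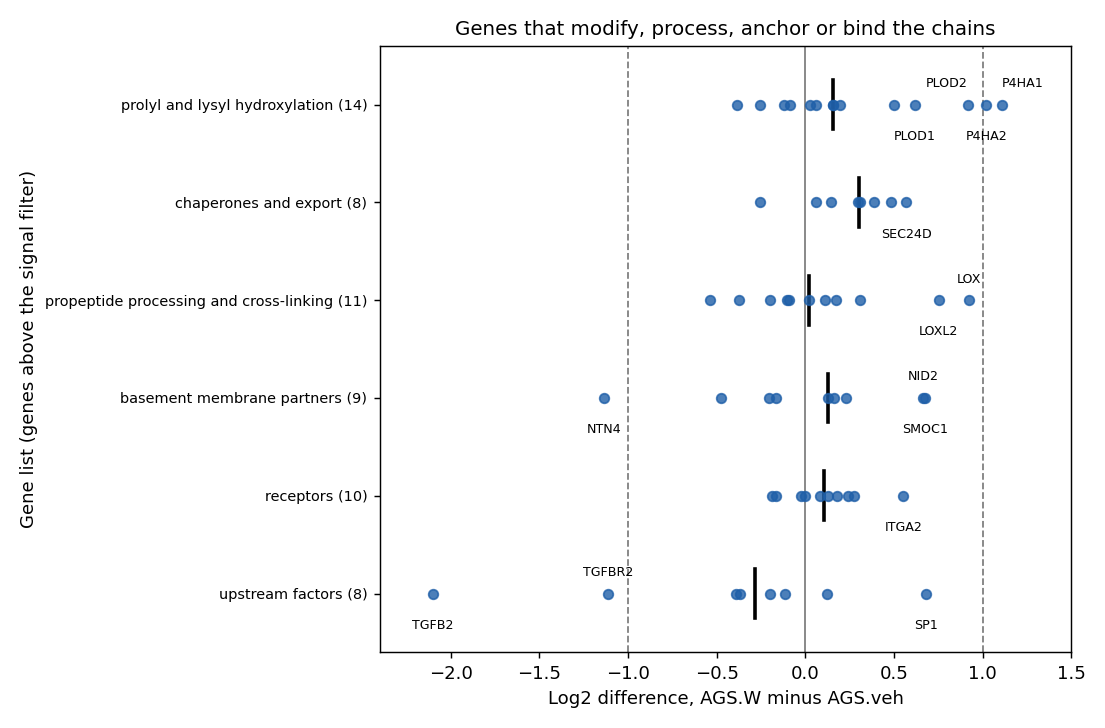
Log2 difference AGS.W minus AGS.veh (horizontal axis) of the genes above the filter in 6 lists of related genes, 1 point per gene, with the list median as a black bar and dashed lines at 2-fold. P4HA1 and P4HA2 lie past 2-fold on the higher side, and TGFB2, NTN4 and TGFBR2 on the lower side, NTN4 with an AGS.W signal under the array median.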

How the data were processed

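RNA of AGS.W and AGS.veh cells was measured on 1 Affymetrix U133 Plus 2.0 array per line. The authors deposited log2 signals for each probe set, already normalized between arrays, which were used as they stand. Per the labels the tools included RMA and MAS5, with roles, versions and background correction not given in the sources used here. After 62 control probe sets were left out, platform annotation of 2016 gave 41091 of 54613 probe sets to 1 gene, 1801 to several and 11721 to none. Symbols were updated by gene identifier through RefSeq (GRCh38.p14), and 54 probe sets kept an older one. Probe sets naming more than 1 gene were left out, and 3 chains of the family were not analysed here.

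A gene took its brightest probe set, and the 2-fold threshold came from the methods of the paper, whose FDR needs replicates. Every chain above the signal filter is named, as is each related gene at least 2-fold apart and up to 3 per direction and list. Fibrillar collagens were those of types I, II, III, V, XI, XXIV and XXVII. Members and lists were chosen with earlier results of these data known. Precision is limited by the number of arrays. Alternatives were 3 scalings, other filters and fold thresholds, and other ways to summarise probe sets. The procedure was tested on simulated data with large differences placed in genes well above the filter. That test does not cover signals near the filter, probe sets that disagree or variation between cultures. Tools were pandas 2.3.3 and numpy 2.4.6 under Python 3.11.15, matplotlib 3.10.9 for plots and statsmodels 0.14.6 for the lowess curve of span 0.3.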

Additional observations from a re-analysis of the deposited data

How the results depend on the processing

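No paired analysis was possible because the study has 1 array per line, which also leaves no replicate to omit. Under median centring, quantile normalization and a lowess curve, no count of chains moved by over 1.5 times and no group median moved by over 0.1. With the array median required on both arrays, 1 gene, COL5A1, was at least 2-fold lower, beside 197 of 12151 genes, and the type IV median was -0.40. With the 60th percentile as filter the type IV median was -0.71 and the fibrillar median -0.14. The laminin median was -0.16 with the 40th percentile and -0.17 with no filter. At 1.5-fold, 1 gene and 2 probe sets were higher and 6 genes and 9 probe sets lower, and at 3-fold 1 gene and 1 probe set were lower. The background shares at these thresholds are given above. As means of all probe sets 1 gene, COL5A1, was 2-fold lower, since COL4A6 then lay under the filter. Of all genes, 136 of 11273 were 2-fold lower as such means. With the probe set of largest difference the type IV median was -0.71, and without _x_at and _s_at probe sets it was -0.40 and the laminin median -0.045. Moves of single chains were compared with the median absolute deviation, scaled to an SD, of the differences of the 1000 probe sets nearest in signal. Of 204 alternative values of the 30 named chains, 198 stayed within it. Those of 2 genes, COL6A1 and COL26A1, changed sign, and neither was 2-fold apart. Many alternatives could hardly move a gene, so this share does not measure stability.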
